A study of Cercocebus atys with 16 samples.

Results

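Molecular chaperones are proteins that help other proteins fold, refold or move through the cell, and the heat shock proteins are the best known of them. They were followed here through 62 genes, of 11472 gene symbols on the array, chosen by name: the HSP70 and HSP110 family (HSPA and HSPH1), HSP90, the small heat shock proteins (HSPB), the mitochondrial chaperonin (HSPD1 and HSPE1), the HSP40 or J-domain proteins (DNAJA, DNAJB and DNAJC), the cytosolic chaperonin TRiC (CCT genes and TCP1), the HSP90 cochaperones AHSA1 and STIP1, and the heat shock factor HSF1. Of these, 53 genes had a signal well above background in at least 2 animals and were tested, with 94 probes among 27493 tested of 43603 on the array, and 13 probes were not tested. The 9 genes without a tested probe were DNAJB7, DNAJB8, DNAJC22, HSPA12A, HSPA12B, HSPB2, HSPB3, HSPB6 and HSPB8. HSPA1A, HSPA1B, HSPA1L, HSPA6, DNAJB1 and CCT3 do not occur as gene names on the array, so the classical inducible HSP70 and HSP40 are not among the members.

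The RNA came from double-negative T cells, which carry CD3 but neither CD4 nor CD8, of 4 sooty mangabeys (Cercocebus atys), all infected with SIV. The labels give the CD4 status Normal to the animals FNV and FKN, and Low to FBR and FTV. Cells were selected with magnetic beads to a stated purity above 98%, rested overnight, and then left unstimulated or stimulated for 4 h with anti-CD3 and anti-CD28 antibodies (3 and 1 mg/ml as labelled), which trigger T cell activation. Per animal, 2 of its 4 arrays compared both conditions, in opposite dye orientations, and the other 2 held 1 RNA in both dyes. The response of a gene is the log2 ratio of stimulated over unstimulated RNA, averaged over both dye orientations, so that n = 4 animals. A gene is represented by its brightest tested probe, and "rose" or "fell" means an adjusted p under 0.05 in limma's moderated test over all 27493 probes.

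The arrays of FNV stood apart from the others. They were scanned in a separate, earlier batch, between 33.3% and 64.8% of their spots were well above background (57% to 65% in the other animals), and the labels of 1 of them conflict on which channel held stimulated RNA. Markers of other cells also differed between animals. The summed normalised intensity of 7 monocyte genes in unstimulated cells was 107700 in FNV and from 4967 to 10150 in the other animals, and after stimulation 37410 against 3869 to 6202. The sum of 4 B cell genes was 14230 in unstimulated FNV and 1973 to 3374 in the others, and 2469 against 728.4 to 955.4 after stimulation. The sum of 3 NK cell genes was 4774 in unstimulated FTV and 291.7 to 527.7 in the others, and 8333 against 309.6 to 555.4 after stimulation. The brightest gene weighs most in such a sum. In unstimulated cells this was LYZ (log2 level 16.48) and CD79B (13.60) in FNV, and KLRD1 (12.03) in FTV. KLRF1 was also highest in FTV (8.90), but NCAM1 was higher in FNV than in FTV (7.75 against 6.86, and 7.35 against 6.79 after stimulation). The sum of 6 T cell genes was 55200 in unstimulated FNV and 83710 to 86050 in the others. After stimulation it was 82070 against 102000 to 128300. CD4, the only coreceptor gene tested, had RNA well above background in 16 of 16 unstimulated and 16 of 16 stimulated channels. With stimulation 4 of the 7 monocyte genes fell, as did 2 of the 4 B cell genes (1 rose), and 0 of the 3 NK cell genes passed. For comparison, 19.9% of all tested probes were called higher and 20.4% lower. Every one of the 4 activation genes IFNG, IL2, IL2RA and TNFRSF9 rose, by 2.55 to 5.51 on the log2 scale. The part of other cell types in the values below was not tested, and in bulk RNA fewer cells of a type and less RNA per cell cannot be told apart.

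HSP70 proteins bind short exposed stretches of unfolded chains in a cycle driven by ATP. J-domain proteins deliver the chains and start ATP hydrolysis, HSP110 proteins and other exchange factors reset the cycle, and STIP1 passes clients on to HSP90, whose ATPase is stimulated by AHSA1. TRiC encloses newly made proteins such as actin and tubulin, while HSPD1 with its lid HSPE1 does the same in the mitochondrial matrix. HSF1 is the transcription factor that drives many of these genes under stress. Activated T cells grow and make protein quickly, which places a load on this machinery.

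The stretches of RNA that were read are shown for the abundant cytosolic HSP70 and HSP90 and for the mitochondrial chaperonin, because HSPA8, HSP90AB1 and HSPD1 had the largest mean responses and because HSPE1, the partner of HSPD1, also has a probe on a near-copy. The HSPD1 sequence is that of its brightest probe, on which its values below rest. The others belong to further probes of their genes, with mean log2 responses of 1.52 for HSPA8, 1.52 for HSP90AB1, and 1.18 (chromosome 12) and 1.15 (chromosome 20) for HSPE1. Probes are 60 bases long and are given 5′ to 3′ with the positions the array files list on the rhesus macaque build rheMac2. Capitals mark bases that differ between both HSPE1 probes where they overlap.
HSPA8, chr14:121412103-121412162, minus strand: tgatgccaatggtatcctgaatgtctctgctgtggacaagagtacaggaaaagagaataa
HSP90AB1, chr4:44170600-44171101, plus strand: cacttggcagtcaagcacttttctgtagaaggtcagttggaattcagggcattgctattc
HSPD1, chr12:61105152-61105211, minus strand: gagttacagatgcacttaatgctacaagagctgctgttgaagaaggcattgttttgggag
HSPE1, chr12:61121659-61121797, plus strand: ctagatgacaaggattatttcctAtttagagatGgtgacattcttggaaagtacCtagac
HSPE1, chr20:46901555-46901614, minus strand: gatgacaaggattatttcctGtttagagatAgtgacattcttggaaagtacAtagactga
The HSP90AB1 probe and the first HSPE1 probe cover more genome than their length, so they join sequence that is interrupted in the genome. The HSPE1 pair overlaps over 57 bases and differs at 3 of them. RNA of one may therefore bind the probe of the other, and the values of the 2 probes cannot be assigned to separate loci. HSPD1 and HSPE1 lie on opposite strands of chromosome 12, and the closest of their probes are 16448 bases apart.

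Most of the chaperone genes rose with stimulation. Of the 53 tested genes, 37 rose (69.8%), 1 fell (1.9%) and 15 did not pass, while over all tested probes 19.9% were called higher and 20.4% lower. A rise of at least 2-fold was called in 12 genes, and a fall of that size in 0, against 3.68% and 3.04% of all tested probes. The response was above 0 in 4 of 4 animals for 41 genes and below 0 in 4 of 4 for 6 genes, against 28.2% and 30.1% of all tested probes. The median response over the 53 genes was 0.53 on the log2 scale, and that over all tested probes was -0.01. By animal, the median over the member genes was 0.29 in FNV, 0.55 in FKN, 0.52 in FBR and 0.56 in FTV. DNAJC12 and HSPA4L, both called higher, passed the filter through stimulated cells only; with signal required in both conditions, a filter added after the values were seen, 35 of 51 genes rose and 1 fell. Without FNV 36 genes rose and 1 fell. Without FKN the count of risen genes was 24, without FBR 25 and without FTV 27, and 20 rose when arrays were centred on the median and not corrected for dye bias by intensity. Centred in that way 17 genes lost their calls, with means still above 0. Among them were HSPH1 (mean 1.485), STIP1 (1.13), AHSA1 (0.82), HSP90B1 (0.77), DNAJB11 (0.77), HSF1 (0.38), CCT6B (0.23) and DNAJA4 (0.21), with limma adjusted p = 0.0551 to 0.231. HSPA4 (0.79), DNAJA3 (0.72), DNAJC17 (0.45), HSPA13 (0.34) and DNAJC12 (0.33), also given below, lost theirs as well (limma adjusted p = 0.0612 to 0.264). In the arrays with the same RNA in both dyes, compared within each animal, 11 genes lost their calls. Of these, HSPE1 (mean 0.87), HSP90B1 (0.48), CCT6B (0.39), HSPA13 (0.29), HSPA4L (0.27), DNAJA4 (0.21) and HSF1 (0.18) are given below (limma adjusted p = 0.0526 to 0.161).

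**Figure D1:**
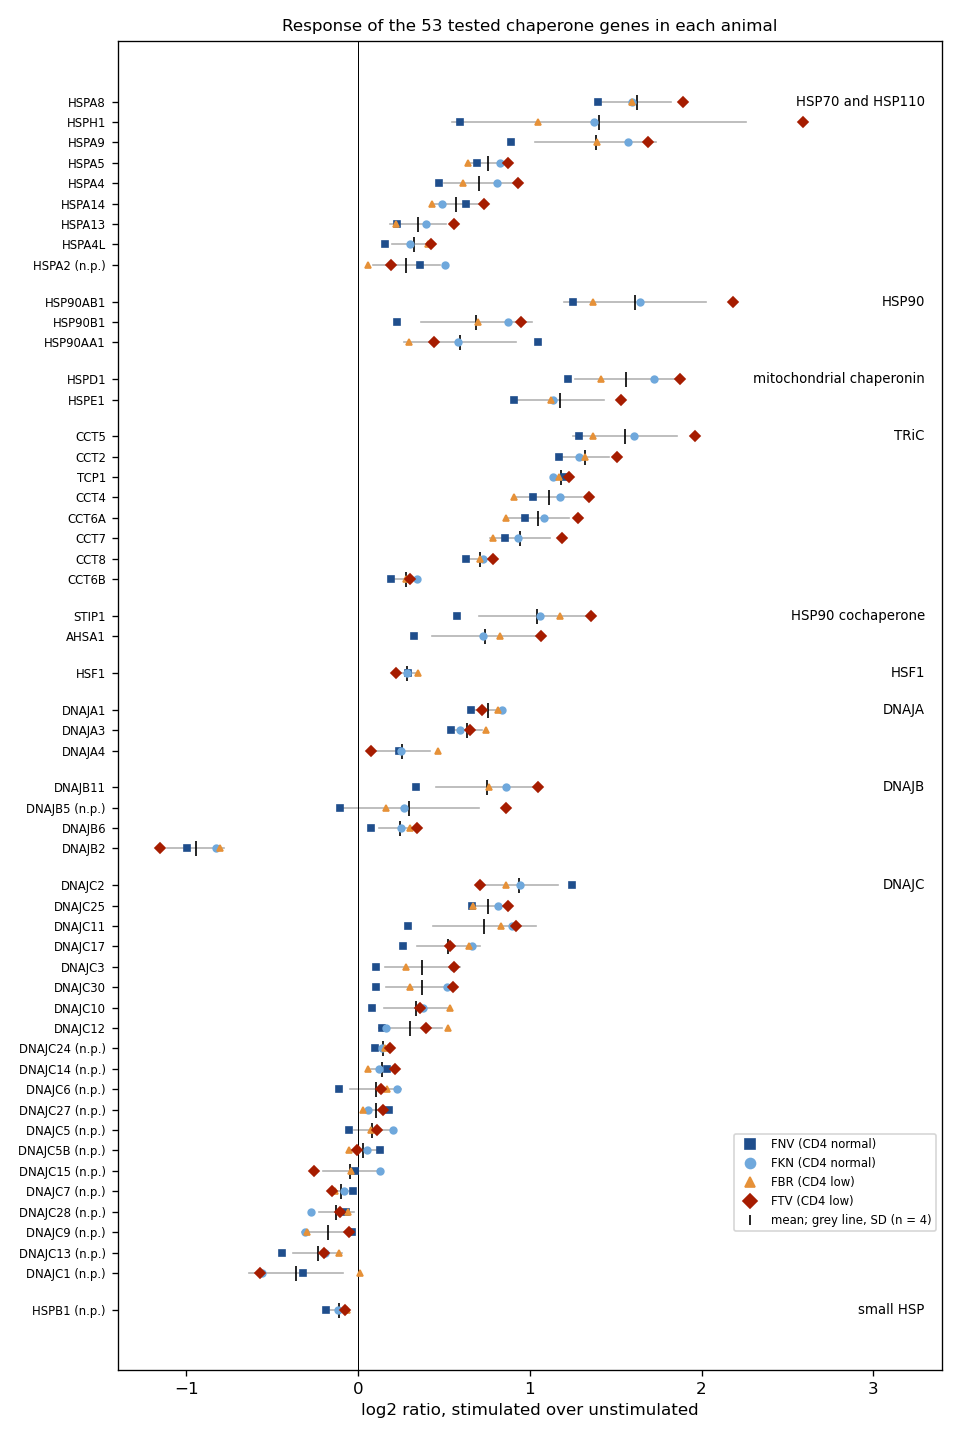
Log2 ratio of stimulated over unstimulated RNA (x axis) in each of 4 animals for the 53 tested genes (y axis), grouped by family and ordered by mean. Vertical ticks are means, grey lines the SD (n = 4), and n.p. marks genes that did not pass at an adjusted p under 0.05. Most points of the HSP70, HSP90, chaperonin and TRiC genes lie right of 0, DNAJB2 lies left of it in all 4 animals, and FTV is far to the right for HSPH1.

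By family, all 8 TRiC genes, all 3 HSP90 genes, both mitochondrial chaperonin genes, both HSP90 cochaperones and all 3 DNAJA genes rose, with median log2 responses of 1.08, 0.69, 1.37, 0.89 and 0.63. In the HSP70 and HSP110 family 8 of 9 rose, with a median of 0.71. In the DNAJC class 8 of 20 rose and 12 did not pass, with a median of 0.12. These counts include HSPA4L and DNAJC12, which passed the filter through stimulated cells only, so their calls are no support. These differences between families were not tested. Over all tested probes 19.9% were called higher and 20.4% lower.

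**Figure D2:**
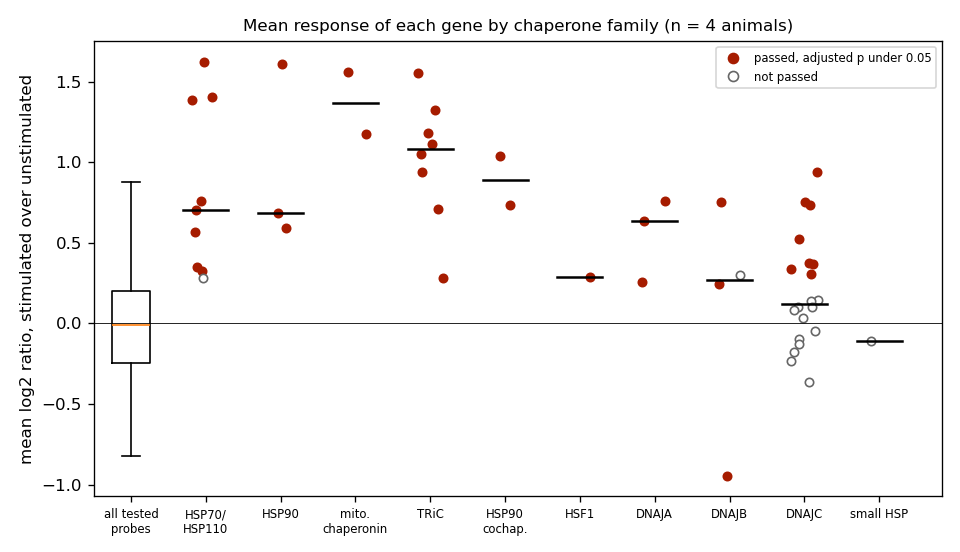
Mean log2 response of each tested gene (y axis, n = 4 animals) by chaperone family (x axis). Filled points passed at an adjusted p under 0.05, open points did not, black bars are family medians, and the box on the left gives the median, quartiles and the 5th and 95th percentiles (-0.82 and 0.88) of all 27493 tested probes. TRiC and the mitochondrial chaperonin sit highest as groups, and the DNAJC class spreads around 0.

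HSPA8 encodes the constitutive cytosolic HSP70, which serves newly made proteins in unstressed cells. Its response was 1.40 in FNV, 1.60 in FKN, 1.60 in FBR and 1.89 in FTV, a mean of 1.62 ± 0.20 (SD, n = 4; 3.08-fold; limma adjusted p = 0.000598). This was the largest mean of the family, with an SD above the median SD of 0.165 over the tested members. Its normalised log2 intensity was 15.28, 14.94, 14.83 and 14.60 in unstimulated cells of FNV, FKN, FBR and FTV and 16.46, 16.21, 16.23 and 16.28 in stimulated cells, so the groups did not overlap. The 4 HSPA8 probes, of which 1 is placed on chromosome X and the others on chromosome 14, gave means of 1.52 to 1.62.

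HSPH1, the HSP110 that serves as exchange factor of HSP70 and is strongly induced by heat, varied most between animals of all tested members. Its response was 0.59 in FNV, 1.37 in FKN, 1.05 in FBR and 2.59 in FTV, a mean of 1.40 ± 0.86 (SD, n = 4; 2.64-fold; limma adjusted p = 0.0224). FTV was far above the others and FNV lowest. In unstimulated cells the level was lowest in FTV (10.64, against 12.09, 11.34 and 11.47 in FNV, FKN and FBR), and in stimulated cells highest (13.17, against 12.60, 12.58 and 12.48). Its second probe gave 0.70, 1.38, 1.10 and 2.29, the same order of animals. The call was lost without FKN (adjusted p = 0.084) and without FBR (adjusted p = 0.0673), and the mean was 1.01 without FTV with the call kept.

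HSPA9, the HSP70 of the mitochondrial matrix (mortalin), gave 0.89 in FNV, 1.57 in FKN, 1.39 in FBR and 1.69 in FTV, a mean of 1.39 ± 0.35 (SD, n = 4; 2.61-fold; limma adjusted p = 0.00179). FNV was the lowest on this probe, but on the other 2 HSPA9 probes it gave 1.43 and 1.39, within the range of the other animals. HSPA5 (BiP), the HSP70 of the endoplasmic reticulum, gave 0.69 in FNV, 0.83 in FKN, 0.64 in FBR and 0.87 in FTV, a mean of 0.76 ± 0.11 (limma adjusted p = 0.0011). Both of its other probes were higher, with means of 0.93 and 0.99. The remaining risen genes of the family were HSPA4, an HSP110-type protein, at 0.71, HSPA14, which works at the ribosome, at 0.57, HSPA13 at 0.35 and HSPA4L at 0.32, with adjusted p between 0.00316 and 0.0199. HSPA4L was well above background in 1 of 16 unstimulated and 13 of 16 stimulated channels. It was tested only through the condition where it is high, so its call is no support and its size is uncertain. HSPA2, best known from the testis, gave 0.36, 0.51, 0.06 and 0.19 in FNV, FKN, FBR and FTV and did not pass (mean 0.28, limma adjusted p = 0.0542).

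Both cytosolic HSP90 genes rose. HSP90AB1, the constitutive form, gave 1.25 in FNV, 1.64 in FKN, 1.37 in FBR and 2.18 in FTV, a mean of 1.61 ± 0.42 (SD, n = 4; 3.06-fold; limma adjusted p = 0.00175). On this brightest probe its stimulated levels spanned 0.10 on the log2 scale (17.56, 17.63, 17.64 and 17.67 in FNV, FKN, FBR and FTV), while its unstimulated levels spanned 0.84 (16.73, 16.34, 16.62 and 15.89). The other 2 probes, both called, gave means of 1.52 and 1.56 with FTV again highest. They did not share the narrow stimulated range: their stimulated levels spanned 0.755 and 0.653 and their unstimulated levels 1.22 and 0.71, and FTV was the lowest unstimulated animal on 1 of these 2. HSP90AA1, the stress-inducible form, gave 1.05 in FNV, 0.58 in FKN, 0.30 in FBR and 0.44 in FTV, a mean of 0.59 ± 0.33 (1.51-fold; limma adjusted p = 0.0197).

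For HSP90AA1 FNV was the highest animal, unlike for most members. Both orientations of the dyes differed by up to 0.89 in 1 animal on this probe, and the same held for the brightest HSP90AB1 probe. On the other 4 HSP90AA1 probes the means were 0.41 to 0.57, all called, and FNV lay at 0.58 to 0.63. The call on the brightest probe was lost without FKN (adjusted p = 0.079), without FTV (adjusted p = 0.0515) and with only the arrays that held stimulated RNA in Cy5 (mean 0.31, adjusted p = 0.0591).

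HSP90B1 (GRP94), the HSP90 of the endoplasmic reticulum, gave 0.23 in FNV, 0.88 in FKN, 0.70 in FBR and 0.95 in FTV, a mean of 0.69 ± 0.32 (limma adjusted p = 0.0123). FNV lay well below the other animals. The call was lost without FKN (adjusted p = 0.0609) and without FBR (adjusted p = 0.0588), while without FNV the mean was 0.84 (adjusted p = 0.0015). STIP1 (HOP), the bridge from HSP70 to HSP90, gave 0.57 in FNV, 1.06 in FKN, 1.17 in FBR and 1.36 in FTV, a mean of 1.04 ± 0.33 (2.06-fold; limma adjusted p = 0.00357). AHSA1, the activator of the HSP90 ATPase, gave 0.33, 0.73, 0.83 and 1.07 in the same order of animals, a mean of 0.74 ± 0.31 (limma adjusted p = 0.00867). In both cochaperones FNV was lowest and FTV highest.

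The mitochondrial chaperonin rose as a pair. HSPD1 (HSP60), the chamber, gave 1.22 in FNV, 1.72 in FKN, 1.41 in FBR and 1.87 in FTV, a mean of 1.56 ± 0.29 (SD, n = 4; 2.95-fold; limma adjusted p = 0.000931). HSPE1 (HSP10), the lid, gave 0.91, 1.14, 1.12 and 1.53, a mean of 1.18 ± 0.26 (2.26-fold; limma adjusted p = 0.00139). FNV was lowest and FTV highest in both genes. The chromosome 20 probe of HSPE1 printed above gave 0.94, 1.14, 1.07 and 1.45, close to the brightest probe in each animal. HSPE1 had the widest range of unstimulated levels among the leading genes, 14.76, 13.87, 13.78 and 13.01 in FNV, FKN, FBR and FTV, and its stimulated levels were 15.13, 15.06, 14.81 and 14.51.

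All 8 measured subunits of TRiC rose, and 5 of them rose at least 2-fold, against 19.9% and 3.68% of all tested probes. CCT5 gave 1.28 in FNV, 1.61 in FKN, 1.37 in FBR and 1.96 in FTV, a mean of 1.56 ± 0.30 (SD, n = 4; 2.94-fold; limma adjusted p = 0.000997). CCT2 gave 1.17, 1.29, 1.32 and 1.51 (mean 1.32 ± 0.14; 2.50-fold), and CCT4 gave 1.02, 1.17, 0.91 and 1.34 (mean 1.11 ± 0.19; 2.16-fold). TCP1, the subunit that gave the complex its name, had the smallest spread of the leading genes, with 1.20 in FNV, 1.14 in FKN, 1.17 in FBR and 1.23 in FTV (mean 1.18 ± 0.04; 2.27-fold; limma adjusted p = 0.000487). CCT6A, with a mean of 1.05 ± 0.18, CCT7 (0.94) and CCT8 (0.71) rose as well.

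These subunits occupy fixed places in the double ring of the complex, and 7 of the 8 measured genes had mean responses between 0.71 and 1.56. The exception on these values was CCT6B, the form of the zeta subunit known mainly from the testis. It gave 0.19, 0.34, 0.28 and 0.30 in FNV, FKN, FBR and FTV, a mean of 0.28 ± 0.06 (limma adjusted p = 0.0131). Its signal was dim, with unstimulated levels of 6.71 to 6.84, so the size of its response is uncertain. In the authors' deposited ratios CCT6B gave 0.62, 0.97, 0.80 and 0.95, a mean of 0.83, above the 0.69 of CCT8 there. The call of CCT6B was lost without FKN (adjusted p = 0.0756), without FBR (adjusted p = 0.067) and without FTV (adjusted p = 0.0546). Probes of a subunit agreed within 0.21 for CCT2, CCT4, CCT5 and CCT7. For TCP1 the 4 probes gave 0.75 to 1.18, and the one placed on chromosome 3 gave 1.15.

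**Figure D3:**
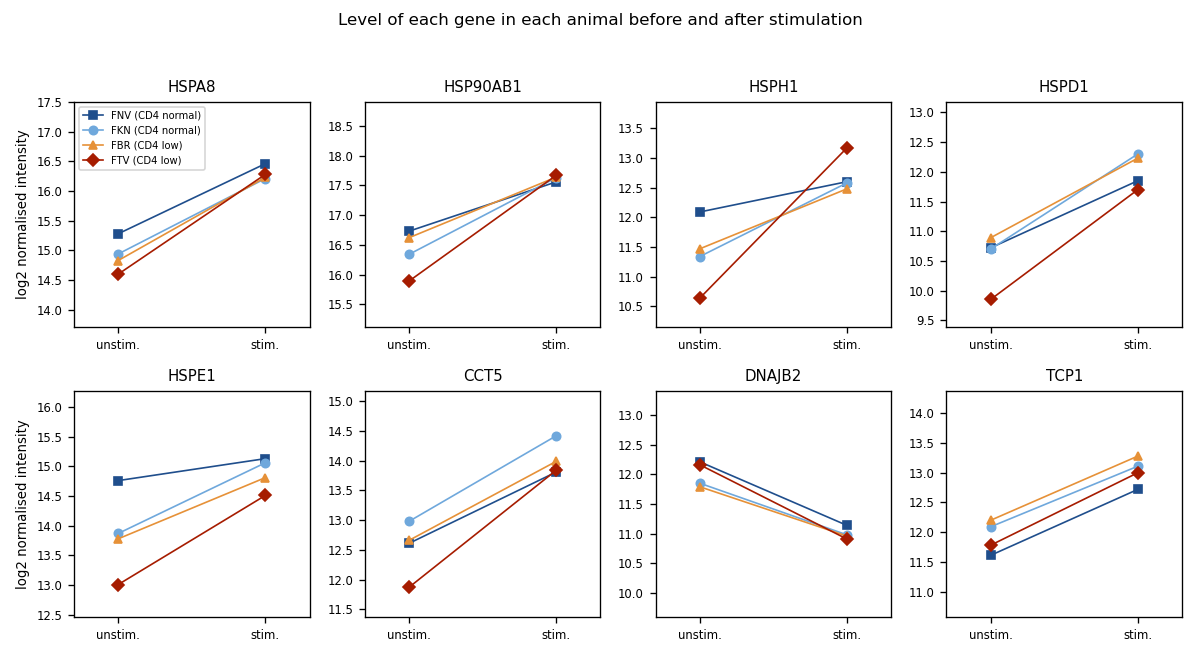
Normalised log2 intensity (y axis) in unstimulated and stimulated cells (x axis) of each animal for 8 genes, 1 panel each; lines join both conditions of an animal, and every panel spans the same number of log2 units around its own mean. FTV starts lowest for HSPA8, HSP90AB1, HSPH1, HSPD1, HSPE1 and CCT5 and ends near or above the others except for HSPD1 and HSPE1, where it stays lowest; DNAJB2 falls in all 4 animals.

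The J-domain proteins, which choose the clients of HSP70, were the mixed family: 13 of 27 tested genes rose, 1 fell and 13 did not pass. The shares over all tested probes were 19.9% higher and 20.4% lower. The risen genes include DNAJC12, which passed the filter through stimulated cells only. Some genes that did not pass were dim, such as DNAJC6 (mean log2 intensity 6.64), and others were not, such as DNAJC9 (11.49). In the authors' deposited ratios DNAJC6 gave 1.045, 0.92 and 0.75 in FKN, FBR and FTV, against 0.23, 0.17 and 0.14 here. The part of signal intensity in the family counts was not tested. The largest rise was that of DNAJC2 (zuotin, MPP11), which acts at the ribosome with HSPA14. It gave 1.25 in FNV, 0.94 in FKN, 0.86 in FBR and 0.71 in FTV, a mean of 0.94 ± 0.23 (SD, n = 4; 1.92-fold; limma adjusted p = 0.0019). The order of animals was the reverse of the commonest one, with FNV highest and FTV lowest, and it was the same on all 3 DNAJC2 probes. DNAJA1, a main cytosolic partner of HSPA8, gave 0.66, 0.84, 0.82 and 0.72 in FNV, FKN, FBR and FTV, a mean of 0.76 ± 0.08 (limma adjusted p = 0.000916).

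DNAJB11, the partner of BiP in the endoplasmic reticulum, gave 0.34 in FNV, 0.86 in FKN, 0.76 in FBR and 1.05 in FTV, a mean of 0.75 ± 0.30 (limma adjusted p = 0.00764). DNAJA4 had the smallest called response of its class, with a mean of 0.26 ± 0.16 (limma adjusted p = 0.0487). Its call was lost when any of the 4 animals was left out (adjusted p = 0.0539 to 0.159). DNAJC25 (0.76), DNAJC11 (0.73), DNAJA3 (0.63) and DNAJC17 (0.53) were the next among the risen genes. DNAJC12 was well above background in 0 of 16 unstimulated and 11 of 16 stimulated channels. Its ratio was 0.14 in FNV, 0.16 in FKN, 0.52 in FBR and 0.40 in FTV (mean 0.31, limma adjusted p = 0.0386). With unstimulated levels raised to the lowest signal well above background where they fell short of it, the mean levels differed 1.24-fold. It too was tested only through the condition where it is high, so its call is no support.

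The one gene that fell was DNAJB2 (HSJ1), a J-domain protein that binds ubiquitin chains and is best known from neurons. It gave -0.998 in FNV, -0.83 in FKN, -0.80 in FBR and -1.15 in FTV, a mean of -0.94 ± 0.16 (SD, n = 4; 1.92-fold lower; limma adjusted p = 0.00109). Its unstimulated levels were 12.21, 11.85, 11.79 and 12.16, and its stimulated levels 11.14, 10.98, 10.96 and 10.91, with no overlap. It has a single probe. DNAJC1, a membrane protein of the endoplasmic reticulum, had the lowest mean of the DNAJC class, -0.36, with -0.32 in FNV, -0.56 in FKN, 0.01 in FBR and -0.57 in FTV. It did not pass (limma adjusted p = 0.0551) but did so without FBR (mean -0.49, adjusted p = 0.0289).

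HSPB1 (HSP27), the only small heat shock protein with a tested probe, gave -0.19 in FNV, -0.12 in FKN, -0.07 in FBR and -0.08 in FTV and did not pass (mean -0.11 ± 0.05, limma adjusted p = 0.15). In the arrays with the same RNA in both dyes its difference was 0.03, so its direction is not settled. HSF1 gave 0.29 in FNV, 0.29 in FKN, 0.35 in FBR and 0.22 in FTV, a mean of 0.29 ± 0.05 (1.22-fold; limma adjusted p = 0.0108). Its call was lost without FKN (adjusted p = 0.0608) and without FBR (adjusted p = 0.0636). It also missed the threshold with the scanner software's own log ratio (mean 0.22, adjusted p = 0.0901).

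By compartment, 7 of 8 tested members of the endoplasmic reticulum rose (median 0.53), as did 5 of 6 of the mitochondrion (median 0.96). The compartments were assigned by hand from general knowledge, and the lists may be incomplete. The 6 mitochondrial genes were HSPA9, HSPD1, HSPE1, DNAJA3, DNAJC11 and DNAJC15, and DNAJC30 (mean 0.37) was not on that list. Of all tested probes 19.9% were called higher. In FNV the median over the endoplasmic reticulum members was 0.23, against 0.59 to 0.72 in the other animals. For the mitochondrial members it was 0.72 in FNV and 0.98 to 1.23 in the others. Of 23 genes with several tested probes, all probes rose in 16, some in 5 and none in 2, and no probe of these genes fell. The means of a gene's probes lay within a median of 0.15 of each other, and the widest gap was the 0.44 of TCP1. The brightest probe of DNAJC15 (-0.05) and of DNAJB5 (0.30) did not pass while another probe of the same gene rose (0.33 and 0.45).

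**Figure D4:**
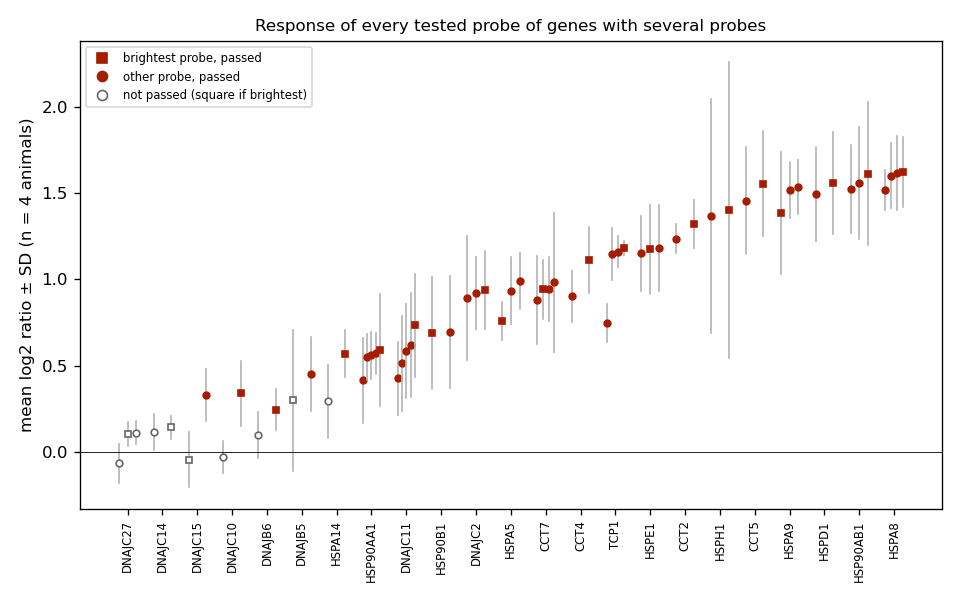
Mean log2 response ± SD (y axis, n = 4 animals) of each tested probe of the 23 genes with several tested probes (x axis, ordered by the median of their probes). Squares are the brightest probes used in the text and open symbols did not pass. Probes of HSPA8, HSPD1, HSPE1 and HSP90B1 nearly coincide, and those of TCP1, DNAJC10 and DNAJC15 lie farthest apart.

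The animals took a repeated order among the 37 risen genes. FNV had the lowest response in 26 of them (70.3%) and FTV the highest in 27 (73%), against 61.1% and 48.4% of all 5466 probes called higher. The counts use the brightest probe of each gene. In the authors' deposited ratios FNV was also lowest for HSPA8, HSPH1, HSPE1, STIP1, AHSA1 and HSP90B1. There it was not lowest for HSPA9, HSP90AB1 and HSPD1, and it has no value for several TRiC genes. In unstimulated cells FNV had the highest level in 26 of the 37 genes (70.3%) and FTV the lowest in 26 (70.3%), against 47.8% and 45.8% of all probes called higher. The range between animals was narrower after stimulation in 27 of the 37 genes (73%), against 49.2% of those probes. The median range of the risen genes was 0.84 in unstimulated and 0.60 in stimulated cells on the log2 scale. These counts were not tested, and a low unstimulated level raises a ratio by construction. The monocyte and B cell sums were also highest in FNV and the NK cell sum in FTV. Levels average all 4 arrays of an animal, so their difference need not equal the ratio.

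DNAJB5, a cytosolic J-domain protein, was another gene with FTV far above the rest, with -0.10 in FNV, 0.27 in FKN, 0.17 in FBR and 0.86 in FTV, and it did not pass (mean 0.30 ± 0.41, limma adjusted p = 0.191). BAG3, a cochaperone outside the members that is induced by heat, was likewise singled out after its values were seen. It gave -0.25, 0.31, 0.04 and 1.12 and did not pass (mean 0.31 ± 0.59, limma adjusted p = 0.317). The second DNAJB5 probe rose, with 0.29, 0.33, 0.42 and 0.76 (mean 0.45, limma adjusted p = 0.0166), and had FTV highest and FNV lowest as well. DNAJB5 was also picked out after its values were seen.

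The second comparison asked whether the chaperones differed with CD4 status, 2 animals labelled Low against 2 labelled Normal. No tested probe of the array passed in the response, the unstimulated level or the stimulated level (0 of 27493 each, limma; 594, 445 and 530 at an unadjusted p under 0.05, or 2.16%, 1.62% and 1.93%). Among the 53 member genes 0, 0 and 1 had an unadjusted p under 0.05. The single gene was HSPA2, with stimulated levels of 9.15 in FNV, 9.35 in FKN, 8.30 in FBR and 8.58 in FTV, a difference of -0.81 (low minus normal, limma adjusted p = 0.828).

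In unstimulated cells both animals with low CD4 lay below both with normal CD4 in 17 of the 53 genes (32.1%) and above them in 4 (7.5%), against 19.1% and 15.2% of all tested probes. The median difference was -0.26 over the member genes and -0.04 over all tested probes. Among the genes named here with both low animals below both normal ones, HSPE1 had the largest mean difference, -0.92 ± 0.44 (SE). It was followed by DNAJB11 at -0.84 ± 0.46 (SE), DNAJB5 at -0.71 ± 0.36 (SE) and AHSA1 at -0.69 ± 0.34 (SE). CCT6A had a difference of -0.71 ± 0.49 (SE), but FBR (12.10) lay above FKN (11.91). Each of these had a limma adjusted p of 0.822. In stimulated cells the 2 counts were 15 (28.3%) and 5 (9.4%), against 18.1% and 16.1%, and the median difference was -0.19. For the response they were 6 below (11.3%) and 9 above (17%), against 11.6% and 15.4%. FNV is 1 of the 2 animals in the normal group, so for these counts CD4 status cannot be told apart from what sets FNV off.

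Other genes of the pathway, from lists chosen with earlier results known, moved less uniformly. Of 20 tested cochaperones and exchange factors of HSP70 and HSP90, 13 rose, 2 fell and 5 did not pass, with a median of 0.37, beside 19.9% higher and 20.4% lower over all tested probes. GRPEL1, the exchange factor of HSPA9, gave 1.56 in FNV, 1.28 in FKN, 1.39 in FBR and 1.40 in FTV (mean 1.41 ± 0.12, limma adjusted p = 0.000524). UNC45A, an HSP90 cochaperone for myosin, fell by 0.56 on the log2 scale (limma adjusted p = 0.00739). Of 7 genes of prefoldin, which hands chains to TRiC, and of related TRiC partners, 1 rose, the prefoldin subunit gene VBP1 (0.50), 1 fell, PFDN5 (-0.29), and 5 did not pass. Both shares (14.3% each) lie below the 19.9% and 20.4% over all tested probes, and the median was 0.12.

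Of 16 other genes of endoplasmic reticulum folding and the unfolded protein response, 5 rose, 3 fell and 8 did not pass, with a median of 0.17. The shares risen and fallen (31.2% and 18.8%) compare with 19.9% and 20.4% of all tested probes. ATF6, a stress sensor that becomes a transcription factor, gave 0.90 in FNV, 1.09 in FKN, 0.96 in FBR and 1.29 in FTV (mean 1.06 ± 0.17, limma adjusted p = 0.000909). ERN1 (IRE1), the kinase and RNase sensor, gave -0.07, -0.86, -0.80 and -0.99 (mean -0.68 ± 0.41, limma adjusted p = 0.0249), with FNV near 0. Of 9 genes of mitochondrial folding and proteolysis, which include GRPEL1, 6 rose and 0 fell (median 0.51). Of 7 heat shock factors and regulators other than HSF1, 1 rose, DAXX (0.27), and 3 fell, with HSPBAP1 lowest (-0.87, limma adjusted p = 0.00149).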

How the data were processed

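The authors deposited scanner output of 16 Agilent arrays with 2 colours: spot and background intensity per dye on a linear scale, plus a log10 ratio. Per the file headers, the software was Agilent Feature Extraction 10.7.3.1. They also deposited a table of log2 ratios per animal, whose background correction and centring are not given in the sources used here. The array was designed on the rhesus macaque, so mangabey RNA may bind some probes less well. Signals were corrected here with limma 3.58.1 (R 4.3.3) by normexp (offset 50) and loess. Outlier spots were left out, at most 51 per array, and 0 spots were saturated. Both dye orientations were averaged per animal after turning the sign, with the title of 1 FNV array followed over its characteristic; the 2 orientations correlated at -0.915 in FNV and -0.936 to -0.932 in the others. Pairing is by animal and built into the ratio. A probe was tested where, for at least 2 animals, the channel holding 1 of the conditions exceeded background clearly (the software's flag) in both dye orientations. Tests were lmFit and eBayes with Benjamini-Hochberg adjustment over 27493 probes, and the steps were tested on simulated data. Levels used Aquantile normalisation. Gene names came from the newer of 2 annotation editions, which differ at 8125 of 43803 spots. Named were fixed chaperone genes, those with a mean of at least 1 from 0, the extremes of each family and list, genes with mixed signs and a mean of at least 0.3 from 0, and genes set apart by CD4 status or by probes called both ways. The members and lists were chosen with earlier results of these data known. Version 1.17.8 of data.table read the files and figures were drawn with Python 3.11.15 and matplotlib 3.10.9. Precision is limited by the 4 animals (median SD 0.16, log2). Alternatives are given in the closing section. Protein and promoter sequences were not used here.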

Additional observations from a re-analysis of the deposited data

Results flagged for a closer look

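The median response over the 53 member genes was 0.29 in FNV and 0.55, 0.52 and 0.56 in FKN, FBR and FTV. The gap between FNV and the nearest animal made up 0.857 of the whole range, above Dixon's 95% critical value for 4 samples. It was the 1 of 38 genes and groups examined to pass this limit, which chance passes in about 1 of 20. The median over the genes was 0.46 without FNV.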

How the results depend on the processing

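No called member gene was called in the opposite direction under any alternative. The risen count of 37 became 20 with median centring, and 13 with arrays of the same RNA in both dyes compared without the replicate block. The same arrays with the replicate block, which pairs the conditions of an animal, gave 26. Leaving out 1 animal gave 24 to 36 risen and 1 to 2 fallen genes. Fallen genes numbered 2 with signal required in all 4 animals, 3 with stimulated RNA in Cy3 only, 2 with scan batch as a term and 0 with the older annotation, which names 42 tested members. The median response of 0.526 became 0.664 with plain background subtraction, 0.331 with no filter on signal and 0.69 in the authors' deposited table. HSPB1 (-0.11) reversed to 0.034 in the arrays of the same RNA, with or without the block. Over the whole array 11082 probes were called, 4851 with median centring, 2166 without the block and 5796, 6244 and 7130 without FKN, FBR and FTV. For these changes the cause was not tested. CD4 status gave 0 member genes in all alternatives but 1: stimulated levels without FKN called 7 (5 lower and 2 higher in low CD4), among 18.8% of all probes, with FNV then the only normal animal and its scan batch not separable. Probes near background, such as those of DNAJC12 and HSPA4L, have uncertain sizes.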

Other observations

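A further 45 probes are described as heat shock proteins or chaperones but carry a locus or transcript identifier as gene name, so they are not members; they were looked up after the member values had been seen. Of 37 tested, 18 rose, 2 fell and 17 did not pass, beside 19.9% called higher and 20.4% lower over all tested probes. A probe described as HSPA1B, the inducible HSP70, gave 0.16 in FNV, 1.46 in FKN, 1.40 in FBR and 1.68 in FTV (mean 1.17 ± 0.68, limma adjusted p = 0.02). A second probe with the same description and transcript gave -1.42, -0.25, 0.43 and 1.67 and did not pass (mean 0.11 ± 1.29, limma adjusted p = 0.872). Both probes were lowest in FNV and highest in FTV, and they differed most in FKN. A probe described as like HSPA6, another inducible HSP70, gave -0.04, 0.87, 0.75 and 0.84 (mean 0.60, limma adjusted p = 0.0388). One described as heat shock 70 kDa protein 1-like gave -0.27, -0.21, -0.20 and 0.04 and did not pass (mean -0.16, limma adjusted p = 0.129).

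The 4 probes described as like DNAJB1, the inducible HSP40, had means of 0.12 to 0.33 and did not pass, and FTV was the highest animal in each, at 0.35 to 0.70. A probe described as like the gamma subunit of TRiC (CCT3) rose by 0.75 ± 0.10 (limma adjusted p = 0.00107), within the range of the other subunits. A probe described as like DNAJA2 rose by 1.03 ± 0.12 (limma adjusted p = 0.00068). The 3 probes described as like the 10 kDa chaperonin rose by 1.02 to 1.16 and can share RNA with HSPE1.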
